A study of Mus musculus with 18 samples.

Results

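The sgRNAs against Daxx were followed through a pooled CRISPR knockout screen in Ba/F3 cells, an interleukin-3-dependent mouse pro-B cell line. They were found by the gene name in the deposited count table, which gave 3 of its 252 sgRNAs, and all 18 libraries were used. Daxx was chosen by its measured read levels, which were lower in cells lacking ITPK1 than in cells with it, so that difference is described below and not tested. The targeted gene is the protein-coding mouse gene Daxx (NCBI Gene 13163 in RefSeq), and no coordinates are given because the files name no genome build.

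Both backgrounds were sensBa/F3 cells carrying the same library against 76 genes. These are cell death genes together with others, such as Grb2, Foxi1, Hoxa3 and Olfr1404. ITPK1-KO cells were a pool of 6 clones with ITPK1 deletions, and ITPK1-WT cells were the ITPK1-proficient line. Both pools were transduced with the library and cultured for 10 days. Each was stained with its own tracking dye (CT Yellow for ITPK1-KO, CT Violet for ITPK1-WT). Dye, transduction, derivation from clones and genotype therefore cannot be told apart. The pools were mixed 1 to 1 and 20M cells were injected into the peritoneum of 8 hCD89-transgenic mice, which carry the human IgA receptor. Mice 5 to 8 received anti-hHer2 IgA and mice 1 to 4 received PBS (vehicle), and viable cells were sorted by background after 16 h. This gave 4 libraries for each background and arm, plus 1 library of each background from before injection. Ages of the mice were not given in the sources used here.

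DAXX was named for its binding to the death domain of the receptor Fas and has been linked from there to stress kinase signalling. Most of the protein is nuclear. There it pairs with the chromatin remodeller ATRX as a chaperone that places a replacement variant of histone H3 at repeats and telomeres, and it gathers in PML nuclear bodies. Both death-promoting and survival-promoting roles have been described, and mouse embryos without Daxx die early.

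The 3 guides are shown because each result below rests on them, with the 12 bases next to the PAM, where Cas9 tolerates mismatches least, in capitals.
Daxx sg-1: tcagcacaTCTCCATAATCG
Daxx sg-2: ggagacatCAGACCACCCTG
Daxx sg-3: gcgggcctCCTGCAAATACG
All have 20 bases and share no target sequence. GC content is 45% for sg-1, 60% for sg-2 and 65% for sg-3, against a median of 50% over the 252 sgRNAs (range 25% to 85%). The closest other guide of the library differs from sg-1 at 9 positions, from sg-2 at 7 and from sg-3 at 8. None of them occurs on either strand of the 3 Daxx promoter windows of RefSeq (GRCm38.p6), and their place in the gene was not analysed here.

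Libraries held between 317564 and 808586 reads. A single Daxx sgRNA had between 425 and 3235 reads in a library and none was at 0. Given the cells sorted per library, and taking 1 sgRNA per cell, an sgRNA of Daxx stood for an estimated 1347 to 3666 cells in ITPK1-KO and 1717 to 8002 cells in ITPK1-WT libraries of the mice. Reads carry no molecular identifiers, so intervals from counts cover counting error only. Since all mice of a background received the same pool, the p-values below speak for variation among mice and not among transductions.

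With every guide and at every stage, ITPK1-KO cells held fewer Daxx reads than ITPK1-WT cells. Summed over the 3 guides, the depth-scaled read share (CPM) was 4772 ± 196 in ITPK1-KO cells of IgA mice, against 10131 ± 512 in ITPK1-WT cells of the same mice (SD, n = 4 mice). In vehicle mice the sums were 4517 ± 94.1 in ITPK1-KO cells, against 10166 ± 445 in ITPK1-WT cells (SD, n = 4 mice). Before injection they were 5488 in the ITPK1-KO pool, against 11502 in the ITPK1-WT pool.

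By guide, sg-1 had 1607, 1833, 1622 and 1585 CPM in ITPK1-KO cells of IgA mice 5 to 8, and 1647, 1593, 1650.1 and 1542 in those of vehicle mice 1 to 4. In ITPK1-WT cells it had 3814, 4001, 3456 and 3538 in IgA mice and 3783.5, 3780, 3789.7 and 3425 in vehicle mice. Before injection sg-1 stood at 2033 in the ITPK1-KO pool, against 4027 in the ITPK1-WT pool. The backgrounds did not overlap, the arms did, and mouse 6 was the highest of the IgA mice in both backgrounds.

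For sg-2, ITPK1-KO cells had 1384, 1547.5, 1360 and 1411 CPM in IgA mice and 1344, 1459, 1338 and 1339 in vehicle mice. ITPK1-WT cells had 2796, 2978, 2833 and 2614 in IgA mice and 2870.3, 2883, 2874 and 2539 in vehicle mice. Before injection the values were 1702 in ITPK1-KO and 3376 in ITPK1-WT cells. This was the scarcest of the 3 guides in every library of the ITPK1-WT background, and all its recovered values lay under the value of the same pool before injection.

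For sg-3, ITPK1-KO cells had 1661, 1670, 1785 and 1621 CPM in IgA mice and 1659.5, 1422, 1524 and 1552 in vehicle mice. ITPK1-WT cells had 3622, 3779, 3715 and 3374.5 in IgA mice and 3841, 3479, 3819 and 3582 in vehicle mice. Before injection the values were 1754 and 4099.5 in ITPK1-KO and ITPK1-WT cells. Of the guides, sg-3 came nearest to a separation of the arms in ITPK1-KO cells, where vehicle mouse 1 alone reached into the range of the IgA mice.

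To set the backgrounds side by side, the level of a guide was taken as the log2 of its reads over the median non-targeting sgRNA of the same library (0.5 reads added), and the value of Daxx as the mean of its 3 guides. On that scale ITPK1-KO minus ITPK1-WT was −1.12, −1.08, −1.12 and −1.07 in IgA mice 5 to 8 (mean −1.10 ± 0.026, SD). It was −1.15, −1.16, −1.22 and −1.07 in vehicle mice 1 to 4 (mean −1.15 ± 0.059, SD). Before injection it was −0.98, with a 95% counting interval of −1.05 to −0.92. Daxx sgRNAs in ITPK1-KO cells thus stood at 46.8%, 45.1% and 50.5% of their ITPK1-WT level in IgA mice, in vehicle mice and before injection. The median difference of all 76 genes was −0.012, 0.017 and 0.092 in that order. Daxx less that median was −1.08, −1.17 and −1.08, so against it the gap in IgA mice was like that before injection.

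Relative to non-targeting sgRNAs, Daxx stood at 27.5% ± 0.936 in ITPK1-KO and 58.8% ± 1.81 in ITPK1-WT cells of IgA mice (SD, n = 4). The values in vehicle mice were 26.0% ± 0.929 in ITPK1-KO and 57.8% ± 3.66 in ITPK1-WT cells (SD, n = 4), and before injection 33.2% in ITPK1-KO and 65.8% in ITPK1-WT cells. The ITPK1-WT level was ordinary for the library. Ranked from the scarcest, Daxx was number 38 of 76 genes in the ITPK1-WT pool before injection, next to Ripk1 and Birc2, and numbers 27 and 26 in IgA and vehicle mice. In ITPK1-KO cells it was number 10 before injection and number 8 in both arms.

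Each of the 3 guides was lower in ITPK1-KO cells. Before injection ITPK1-KO minus ITPK1-WT was −0.90 for sg-1 (95% counting interval −1.01 to −0.80), −0.91 for sg-2 (−1.02 to −0.79) and −1.14 for sg-3 (−1.25 to −1.03). The interval of sg-3 did not overlap those of the other guides, but these intervals cover counting error alone, in 1 library per pool. Recovered libraries of the same group differed by more than that error, so a difference between guides cannot be read from it and was not tested. The SD over the 3 guides was 0.14, against a median of 0.0998 over all 76 genes, of which 55 had an SD no larger than that of Daxx (itself included). In recovered cells the mean over the 8 mice was −1.18 ± 0.045 for sg-1, −1.004 ± 0.084 for sg-2 and −1.18 ± 0.085 for sg-3 (SD), so sg-2 gave the smallest difference there. The sample numbers in the read-file names run in 2 series, of which the first holds mice 1 to 5 and the second mice 6 to 8 with the libraries from before injection. The difference was −1.14 ± 0.053 in the 5 mice of the first series and −1.09 ± 0.027 in the 3 of the second (SD).

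The genes whose course over the 18 libraries was most like that of Daxx were Txnl4b, Grb2 and Bbc3. Likeness was the root-mean-square difference between levels centred on each gene's own mean, which was 0.17 for Txnl4b, 0.22 for Grb2 and 0.37 for Bbc3 against a median of 0.57 over the other genes. Levels were centred over both backgrounds together, so likeness includes the ITPK1-KO minus ITPK1-WT difference for which Daxx was chosen. Txnl4b encodes a thioredoxin-like protein related to a spliceosome component, Grb2 an adaptor that couples growth factor receptors to Ras, and Bbc3 the BH3-only apoptosis inducer PUMA. Txnl4b differed between ITPK1-KO and ITPK1-WT cells by −1.38 ± 0.16 in IgA mice and −1.25 ± 0.23 in vehicle mice, and Grb2 by −1.12 ± 0.087 and −0.99 ± 0.19 in those arms (SD, n = 4). For Bbc3 the differences were −0.44 ± 0.051 in IgA mice and −0.35 ± 0.038 in vehicle mice (SD, n = 4). The change from before injection was not alike in all of them. In ITPK1-KO and ITPK1-WT cells of IgA mice it was −0.27 and −0.16 for Daxx and −0.47 and −0.11 for Txnl4b. It was 0.10 and 0.21 for Grb2 and 0.012 and 0.13 for Bbc3. In vehicle mice Txnl4b (−0.43 and −0.20) and Grb2 (−0.13 and −0.14) were lower, and Bbc3 stood at −0.020 and 0.010.

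Daxx was set apart from Txnl4b and Grb2 by its level. Relative to non-targeting guides, those of Txnl4b before injection were at 1.91% in ITPK1-KO and 3.87% in ITPK1-WT cells, and Grb2 guides at 2.40% and 4.82%, while Daxx guides were at 33.2% and 65.8% in those pools. The 3 guides of Txnl4b held 192 reads together in the ITPK1-KO pool and those of Grb2 313, against 2835 for Daxx. The SD of the background difference over guides before injection was 0.70 for Txnl4b and 0.71 for Grb2, against 0.14 for Daxx, and these differences in level and spread were not tested. Bbc3 was like Daxx in spread, with an SD of 0.13, and in its ITPK1-WT level before injection, 65.9%. In the ITPK1-KO pool its guides were at 52.7%, above the 33.2% of Daxx. In the order of all 76 genes before injection, Ipmk (−4.44), Txnl4b (−1.01) and Grb2 (−1.01) were lower than Daxx (−0.98), and Bbc3 came next at −0.32. The level of Ipmk in the ITPK1-KO pool was −7.43, under that of Txnl4b (−5.71) and near the floor, so the size of its difference is less sure. The inositol phosphate kinase Itpk1 itself was at 1.70, and Ipmk encodes the multikinase of the same pathway. Whether the Itpk1 guides still have their target sites in ITPK1-KO cells was not tested.

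After 16 h in the peritoneum, Daxx guides were less abundant than before injection in both backgrounds, whether or not IgA was given. The change in ITPK1-KO cells was −0.27 ± 0.048 in IgA mice and −0.35 ± 0.051 in vehicle mice, and in ITPK1-WT cells −0.16 ± 0.045 in IgA mice and −0.19 ± 0.094 in vehicle mice (SD, n = 4 mice each). These are differences of log2 levels relative to the non-targeting median. The median of all 76 genes was −0.065 and −0.079 in ITPK1-KO cells and 0.033 and 0.0090 in ITPK1-WT cells of IgA and vehicle mice. Single non-targeting guides ran from −0.19 to 0.042 in ITPK1-KO and from −0.30 to 0.20 in ITPK1-WT cells of IgA mice, and from −0.14 to 0.051 in ITPK1-KO and from −0.13 to 0.076 in ITPK1-WT cells of vehicle mice (means over mice, 24 guides). The Daxx mean lay inside that range in ITPK1-WT cells of IgA mice and under it in the other groups. That sets a mean of 3 guides against single guides. Taken singly in ITPK1-KO cells of IgA mice, sg-3 was inside the range at −0.13, with sg-1 (−0.36) and sg-2 (−0.33) under it. In ITPK1-WT cells of vehicle mice, sg-1 (−0.1268) stood at the lower end (−0.1269), with sg-2 and sg-3 under it. Counting error of the single starting library came to 0.053 either way in ITPK1-KO and 0.035 in ITPK1-WT cells, and there is no replicate of it, so the change was not tested.

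In that order Daxx was the second-lowest gene of 76 in ITPK1-KO cells of vehicle mice, after Txnl4b (−0.43), and number 5 from the lowest in those of IgA mice. In ITPK1-WT cells it was number 4 in IgA mice and number 5 in vehicle mice. All 48 values of Daxx guides in recovered libraries lay under the starting value of their pool. These are not separate events, since the values of a guide in a background share 1 starting count. In ITPK1-KO cells alone the same held for 7 of the 76 genes, and in ITPK1-WT cells alone for 2. The same held in both backgrounds for 2 of the 76 genes, Daxx and Acsl4, the acyl-CoA synthetase that loads membranes with oxidisable lipids, which was picked out after its values were seen. As plain shares of reads, 47 of the 48 Daxx values were lower than at the start, the exception being sg-3 in ITPK1-KO cells of mouse 7. On that scale Acsl4 alone of the 76 genes had all values lower in ITPK1-KO cells, and likewise in both backgrounds. The changes of Daxx in ITPK1-KO cells then came to −0.20 in IgA mice and −0.28 in vehicle mice. The order of genes is the same on both scales.

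The 4 vehicle mice and IgA mouse 5 belong to the first series of sample numbers and the starting libraries to the second. In IgA mice 6 to 8, which share the series of the starting libraries, the change was −0.26 ± 0.054 in ITPK1-KO and −0.16 ± 0.054 in ITPK1-WT cells (SD, n = 3). By guide, the change in ITPK1-KO cells of vehicle mice was −0.41 ± 0.067 for sg-1, −0.39 ± 0.072 for sg-2 and −0.26 ± 0.10 for sg-3 (SD, n = 4). In ITPK1-WT cells of vehicle mice it was −0.13 ± 0.10, −0.28 ± 0.12 and −0.16 ± 0.087 for sg-1, sg-2 and sg-3 (SD, n = 4).

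IgA made no difference to Daxx that passed the test in either background. In ITPK1-KO cells, the summed Daxx guides had a log2 fold change of 0.083 (IgA over vehicle, SE 0.037, 95% interval 0.0052 to 0.16) and an adjusted p of 0.144 in edgeR's quasi-likelihood test on counts summed per gene. The interval is unadjusted, and the unadjusted p was 0.0379. In that test 10 of 76 genes were called (13.2%) at an adjusted p under 0.05. An exact two-sided permutation test of the summed read share over the 8 mice gave p = 0.0571 (adjusted p = 0.0857 over 3 such tests), where 4 against 4 can reach 0.0286. Relative to non-targeting sgRNAs, the same exact test gave p = 0.0857 (adjusted p = 0.214). Shares were 4652, 5050 and 4767 CPM in IgA mice 5 to 7 and 4617 in mouse 8, against 4649.8, 4475, 4512.5 and 4433 in vehicle mice 1 to 4, so mouse 8 and mouse 1 overlapped.

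Among the guides, sg-3 had the largest value in ITPK1-KO cells, 0.13 (SE 0.058, adjusted p = 0.143 by edgeR), and sg-1 and sg-2 stood at 0.056 and 0.058 (adjusted p = 0.630 for both by edgeR). Without mouse 6, sg-1 was at 0.0030 and sg-2 at 0.014. Of all 251 sgRNAs tested there, 26 were called (10.4%). With the sample number series as a covariate, which rests the comparison on mouse 5 and the vehicle mice, the gene's value was 0.047 (SE 0.061, adjusted p = 0.638 by edgeR). Without mouse 6 it was 0.053 (adjusted p = 0.353 by edgeR).

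In ITPK1-WT cells the value was −0.0084 (SE 0.033, 95% interval −0.075 to 0.059, adjusted p = 0.842 by edgeR), with 28 of 76 genes called (36.8%). It was 0.042 when libraries were scaled to the non-targeting sgRNAs (adjusted p = 0.266), so even its sign was not settled. The guides stood at −0.000045 for sg-1, 0.0045 for sg-2 and −0.027 for sg-3 (adjusted p of 0.653 to 0.999 by edgeR), where 70 of 252 sgRNAs were called (27.8%). The exact two-sided permutation p was 0.943.

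The difference of the IgA effect between the backgrounds, ITPK1-KO minus ITPK1-WT, was 0.087 for Daxx (SE 0.052, 95% interval −0.018 to 0.19, adjusted p = 0.528 by edgeR), and 5 of 76 genes were called (6.58%). Of the guides, sg-3 had 0.15 (SE 0.071, adjusted p = 0.309 by edgeR), where 10 of 252 sgRNAs were called (3.97%). The exact two-sided permutation test of the per-mouse background difference in read share gave p = 0.0571 (adjusted p = 0.0857), and relative to non-targeting sgRNAs it gave p = 0.143 (adjusted p = 0.214). In the authors' deposited table of MAGeCK results, the log2 fold changes of sg-1, sg-2 and sg-3 were 0.011, 0.073 and 0.13 in ITPK1-KO cells and 0.030, 0.032 and 0.037 in ITPK1-WT cells. The lowest FDR among these 6 entries of the authors' deposited table was 0.905, for sg-3 in ITPK1-KO cells.

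Daxx has been placed in death receptor signalling, and 9 of 14 genes of a list for that pathway were targeted. Their ITPK1-KO minus ITPK1-WT levels before injection ran from 0.021 for the TNF receptor Tnfrsf1a to 0.27 for the kinase Ripk1, with a median of 0.073 (0.092 over all 76 genes). In IgA mice they lay between −0.12 and 0.0015, and in vehicle mice between −0.090 and 0.14. None was near the −1.10 and −1.15 of Daxx in those arms, but Daxx was chosen for its low value, so nothing is drawn from that distance. Fas, the receptor whose death domain DAXX binds, was at 0.0015 in IgA mice, 0.063 in vehicle mice and 0.10 before injection.

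In the IgA comparison in ITPK1-KO cells, 1 of the 9 was called, Ripk1, which was lower (−0.26, adjusted p = 5.38e-08 by edgeR), against 4 of 76 genes called lower (5.26%) and 6 called higher (7.89%). DESeq2 called 3 of the 9 there, and 12 of the 68 genes (17.6%) to which it gave an adjusted p. The list's median was −0.015, against 0.0071 over all genes. In ITPK1-WT cells the adaptor Fadd (−0.14, adjusted p = 0.000309), Ripk1 (−0.072, adjusted p = 0.0116) and the BH3-only protein Bid (−0.061, adjusted p = 0.0116) were lower and Tnfrsf1a was higher (0.061, adjusted p = 0.0280), all by edgeR, where 12 of 76 genes were called lower (15.8%) and 16 higher (21.1%). There the median of the list was −0.032, against −0.0033 over all genes. All vehicle mice are in the first series of sample numbers and IgA mice 6 to 8 in the second, so IgA and series largely coincide in these calls. For the difference of the IgA effect, Ripk1 was the 1 member called (−0.19, adjusted p = 5.86e-06 by edgeR), with 3 of 76 genes lower (3.95%) and 2 higher (2.63%), and the median was 0.0060 against 0.0083 over all genes.

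Of 15 genes on a list for mitochondrial apoptosis, 10 were targeted. Before injection their ITPK1-KO minus ITPK1-WT levels had a median of 0.070, with Bbc3 lowest (−0.32) and the BH3-only gene Bad highest (0.23). In ITPK1-KO cells none of the 10 was called under IgA by edgeR or DESeq2, and 1, APAF1, had an unadjusted p under 0.05 in edgeR, as did 21 of all 76 genes. The median was 0.0098 for the list and 0.0071 for all genes. In ITPK1-WT cells Bbc3 (0.083, adjusted p = 0.00164), the apoptosome scaffold APAF1 (0.070, adjusted p = 0.00454) and its caspase Casp9 (0.052, adjusted p = 0.0223) were higher and the BH3-only gene Pmaip1 was lower (−0.060, adjusted p = 0.0159), all by edgeR. These 4 of 10 compare with 28 of 76 genes called in that background (36.8%), a like share. Here too IgA largely coincides with the series of sample numbers, and whether each call holds apart from the series is not given here. That list's median was 0.012 there, and none of its members was called for the difference of the IgA effect by edgeR or DESeq2, while 2, Bak1 and Bcl2l11, had an unadjusted p under 0.05 in edgeR, as did 10 of all 76 genes. APAF1, Bak1 and Bcl2l11 are named there after their values were seen. None of 11 chromatin and nuclear-body partners on a further list, among them Atrx and Pml, was targeted by the library.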

How the data were processed

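Raw counts of whole reads per sgRNA were deposited by the authors. The design text says that mismatched reads were dropped after alignment to the guide library and that scoring used MAGeCK RRA, version 0.5.6. Which aligner was used is not given in the sources used here. For each sgRNA, the deposited MAGeCK tables give a log2 fold change, p-value and FDR. Columns were mapped to samples through the deposited sample legend, which names the arm of each mouse and the cells sorted per library (another unit, per the file headers). The same study's guide table gave the sequences, another unit, deposited by the authors as text. No column of other samples was used.

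The tests used edgeR 4.0.16 (glmQLFit, glmQLFTest) with limma 3.58.1 under R 4.3.3. A mean of 10 reads was the minimum for an sgRNA to enter, libraries were scaled by TMM, and p-values were adjusted by Benjamini-Hochberg with a threshold of 0.05 over all sgRNAs, and again over 76 genes with counts summed over the sgRNAs of a gene and the same scaling. Arms were compared in a separate fit for each background. The difference of the IgA effects came from the 16 recovered libraries with 4 group means. The procedure was tested on simulated data.

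The mouse number pairs both libraries of a mouse, since they come from the same animal. Over the 238 sgRNAs whose mean reached 500 reads, their deviations from the group means correlated from −0.0838 to 0.258. The 24 pairs of libraries of the same background and arm differed by more than sampling noise (chi-square per degree of freedom 2.245 to 5.62), so none was counted as a duplicate.

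Daxx, the gene lists and the tests were chosen with earlier results of these data known. Named genes were Daxx, the 3 most like it over 18 libraries, Itpk1 and Ipmk, and list members past the gene test (at most 6 per list). Alternatives were DESeq2 1.42.0 (size factors and Wald test), total counts, scaling to the 24 non-targeting sgRNAs, no filter or a mean of at least 100 reads, robust dispersion, a joint fit, the series of sample numbers as a covariate, a block for the mouse, leaving out each mouse, and for levels 5 reads as pseudocount, plain or TMM-scaled read shares (CPM) and summed counts.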

Additional observations from a re-analysis of the deposited data

Results flagged for a closer look

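Within groups of 4 mice, the highest or lowest library was set against the rest by Dixon's gap over range, at its 95% critical value. Of 40 groups 8 passed, and chance flags about 1 in 20. Read shares and levels relative to non-targeting sgRNAs come from the same counts, so these are not separate events.

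For sg-1, IgA mouse 6 stood apart in ITPK1-KO cells with 1833 CPM, at a log2 level of −1.66 relative to non-targeting sgRNAs. The mean of the 3 guides was also highest in that library, at −1.79. Vehicle mouse 4 stood apart in ITPK1-WT cells. There sg-1 had 3425 CPM and a level of −0.81, and sg-2 had 2539 CPM and a level of −1.24, the lowest of their groups. For sg-2 in ITPK1-KO cells, vehicle mouse 2 was highest with 1459 CPM.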

How the results depend on the processing

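Daxx passed the threshold in no alternative run for the IgA effect in either background or for its difference. For summed Daxx in ITPK1-KO cells the value kept its sign in all 17 alternatives (0.047 to 0.099, adjusted p from 0.0625 with scaling to non-targeting sgRNAs to 0.638), and DESeq2's Wald test gave no adjusted p for it. Of its guides, sg-1 was at 0.0030 and sg-2 at 0.014 without mouse 6, and at 0.0072 and 0.016 with the series of sample numbers as a covariate. The difference of the IgA effect kept its sign (0.040 to 0.11). With the mouse as a replicate block it was 0.083 (SE 0.043, adjusted p = 0.372 by edgeR), and the block changed no call on Daxx or its guides.

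In ITPK1-WT cells the summed value changed sign with scaling to non-targeting sgRNAs (0.042) and with the series of sample numbers as a covariate (0.0019), and ran from −0.039 to 0.020 with each mouse left out, being positive without mouse 1, 3 or 8. There sg-1 turned positive with DESeq2's size factors (0.0068), total counts (0.0072), scaling to non-targeting sgRNAs (0.050), a mean of at least 100 reads (0.0041), the series covariate (0.039) and the joint fit (0.0029), sg-2 negative with the series covariate (−0.0050) and sg-3 positive with scaling to non-targeting sgRNAs (0.024). With each mouse left out sg-1 ran from −0.042 to 0.034, sg-2 from −0.040 to 0.037 and sg-3 from −0.053 to 0.0054. The difference of the IgA effect for sg-1 was −0.037 with the series covariate. The cause was not tested for any of these.

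The ITPK1-KO minus ITPK1-WT level before injection was −1.07 both as a share of reads and as TMM-scaled CPM (−1.066 and −1.074), and that in IgA mice −1.13 on summed counts. The change from before injection in ITPK1-KO cells was −0.20 in IgA mice as a share of reads (−0.203), as TMM-scaled CPM (−0.202) and −0.21 on summed counts, and in vehicle mice −0.281, −0.279 and −0.30 in that order. With each mouse left out, these changes ran from −0.30 to −0.26 in IgA mice and from −0.38 to −0.33 in vehicle mice, and in ITPK1-WT cells from −0.18 to −0.14 and from −0.21 to −0.14. The background difference ran from −1.10 to −1.09 in IgA mice and from −1.18 to −1.13 in vehicle mice.

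With the series covariate, counts of called genes were 5 in place of 10 in ITPK1-KO cells, 10 in place of 28 in ITPK1-WT cells and 2 in place of 5 for the difference, and counts of sgRNAs were 15 in place of 26, 17 in place of 70 and 4 in place of 10. Without mouse 7, ITPK1-WT cells gave 17 genes and 45 sgRNAs, and without mouse 6 the difference gave 17 sgRNAs.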
